A study of Mus musculus with 6 samples.

Results

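The 34 genes described here encode interferon-induced antiviral effectors, the proteins that cells make after interferon has been sensed and that act on viral RNA, viral proteins or the infected cell itself. The list was drawn up by name, with earlier results of these data known. It holds no interferon sensors, transcription factors or interferon-inducible GTPases, and all 34 genes were found among the 22964 genes of the table. They were measured by RNA sequencing in lymphatic endothelial cells sorted from the meninges of wild-type male C57BL/6J mice that received no treatment. The young group held 3 samples from mice aged 2 to 3 months and the old group 3 samples from mice aged 20 to 24 months. Cells were sorted as negative for CD45, a surface protein of leukocytes, and positive for CD31 and podoplanin. The mice came from either of 2 suppliers, which the labels do not tie to samples, and the RNA was amplified linearly before sequencing. Whether a sample was 1 animal or a pool is not in the labels, and neither is a statement that replicates came from different mice. The p-values therefore reflect the scatter among these 6 samples, part of which may be technical.

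Interferons are secreted proteins that bind receptors on the cell surface and, through JAK kinases, activate transcription factors in the cell. These bind a promoter sequence called the interferon-stimulated response element, and the effector genes are transcribed. Many of these genes are also expressed at a low level without infection, and their level is then known to vary with cell type. The set covers ISG15 conjugation, RNA-binding IFIT proteins, oligoadenylate synthetases, Mx proteins, enzymes that act on nucleotides and RNA, ADP-ribosyltransferases, TRIM and nuclear body proteins, and further effectors with other roles.

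Promoters of interferon-induced genes are known to carry this element, and stretches of 5 promoters that hold a match are printed here. Those of Oas1a, Ddx60 and Rsad2 belong to members with an unadjusted p under 0.05, and those of Ifit1 and Ifit3 to members of 1 gene cluster. Promoters from 250 bases before to 50 bases after a start site were taken from RefSeq (GRCm38.p6), which held 26 of the 34 genes, the others being Ifi27l2a, Mx1, Mx2, Oas2, Parp14, Parp9, Rtp4 and Usp18. Both strands were searched for the core of the response element, GAAA followed by any 2 bases and a further GAAA. Of the 26 genes, 10 (38.5%) held at least 1 match, against 3.99% of all 27025 genes with a promoter in the table. They were Ddx60, Ifit1, Ifit3, Isg15, Oas1a, Oas3, Rsad2, Shisa5, Trim21 and Trim30a. The printed stretches run 5′ to 3′ on the strand of the gene, end at or before the base upstream of the start site, and have the matches to that core or its reverse complement in capitals.
Oas1a: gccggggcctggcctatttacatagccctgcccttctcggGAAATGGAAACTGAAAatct
Ddx60: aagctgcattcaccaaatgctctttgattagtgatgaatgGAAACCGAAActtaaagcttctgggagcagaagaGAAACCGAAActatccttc
Rsad2: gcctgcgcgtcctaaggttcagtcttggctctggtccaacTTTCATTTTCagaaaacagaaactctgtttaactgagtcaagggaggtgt
Ifit1: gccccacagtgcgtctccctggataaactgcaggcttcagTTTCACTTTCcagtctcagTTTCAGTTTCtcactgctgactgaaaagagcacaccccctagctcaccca
Ifit3: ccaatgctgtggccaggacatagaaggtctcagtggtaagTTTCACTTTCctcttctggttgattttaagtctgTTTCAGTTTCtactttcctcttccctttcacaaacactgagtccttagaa
The stretch of Oas1a lies at chr5:120907526-120907585 on the minus strand, that of Ddx60 at chr8:61927994-61928086 on the plus strand, that of Rsad2 at chr12:26456523-26456612 on the minus strand, that of Ifit1 at chr19:34640745-34640853 on the plus strand and that of Ifit3 at chr19:34583333-34583456 on the plus strand. In Oas1a the 2 matches overlap and begin 20 and 14 bases before the start site. In Ifit1 and Ifit3 each promoter held 2 matches, with the same letters in both genes. Ifi44, Sp100 and Dtx3l, which are also among the 7 genes with an unadjusted p under 0.05, had no match in this window. A match describes the letters only and is not evidence that a factor was bound.

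All 6 libraries held transcripts of lymphatic endothelium together with those of other cells. Estimated counts summed to between 14285794 and 21043945 per library. Levels are given in CPM, the counts of a gene relative to the library's total on a fixed scale, after TMM scaling, which corrects library sizes for composition. The defining markers of the labelled cell type were present in every library, with Prox1, the transcription factor of lymphatic fate, at 904, 945 and 877 CPM in the young and 996, 932 and 1410.0 CPM in the old samples. The summed level of 10 lymphatic endothelial markers was 10870 to 13440 CPM in the young and 16820 to 20640 CPM in the old samples, without overlap. The sum of fibroblast markers went the other way, at 5739 to 8754 CPM in the young and 2929 to 4856 CPM in the old samples. The sum of 17 macrophage and microglia markers was 877, 3971 and 5469 CPM in the young samples and 942, 2585 and 1605 CPM in the old samples, with Ptprc, which encodes CD45, at 0.993 CPM in young sample 1 and 30.7 to 72.7 CPM elsewhere. Of the macrophage markers 1, Tyrobp, was at 0 in 1 library. The 10 lymphocyte markers found in the table, of 13 listed, summed to 19.2 to 60.4 CPM in any library, with Cd3e at 0 in 3 libraries and Cd79b and Ms4a1 in 2 each. Blood endothelial markers summed to 1318 to 1587 CPM in the young and 2318 to 2570 CPM in the old samples, again without overlap, and pericyte and smooth muscle markers to 625 to 959 and 861 to 2018 CPM. Sums of dendritic cell markers (568 to 897 and 838 to 899 CPM) and of granulocyte and mast cell markers (96.5 to 193 and 43.8 to 219 CPM) overlapped. The part of these lists in the values of the effector genes was not tested. In bulk samples, fewer cells of a type and less RNA per cell cannot be told apart.

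**Figure D1:**
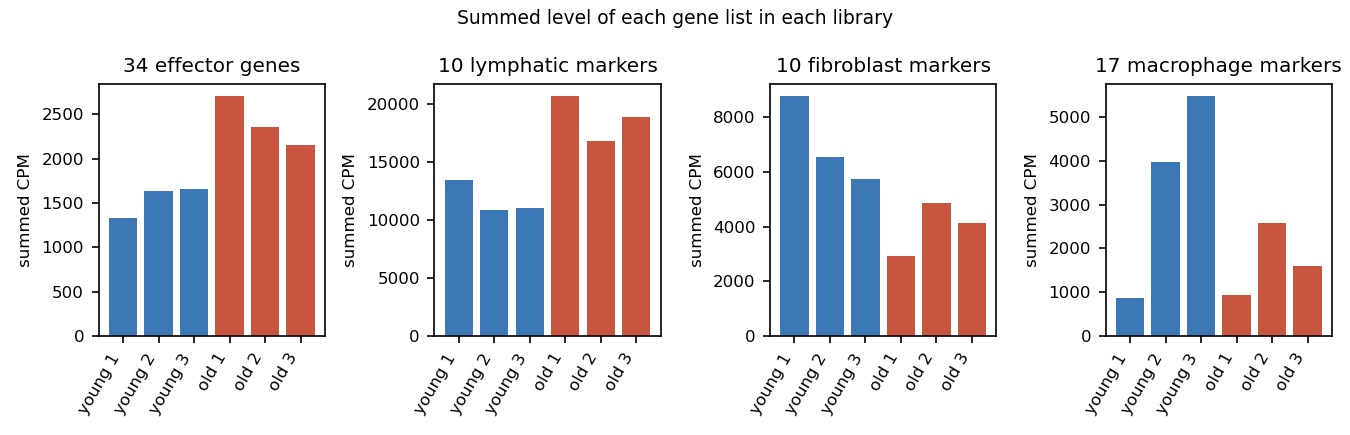
Summed CPM (vertical axis) of the 34 effector genes and of 3 marker lists in each of the 6 libraries, young in blue and old in red. The effector genes sum to 1325 to 1652 CPM in the young and 2155 to 2699 CPM in the old libraries, and the lymphatic markers are also higher in every old library.

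After TMM scaling most of the effector genes were at a higher level in the old samples, although none passed the test over all genes. Of the 34 genes, 33 had enough counts to be tested, and 27 of these had a positive log2 fold change of old against young, against 51.0% of all 15394 genes tested. The median over the 33 was 0.58, with an interquartile range of 0.16 to 1.24, beside a median of 0.02 over all genes tested. With Mx2, which was not tested, placed at its lower bound, the median over 34 was 0.70. Adjusted over all genes, edgeR's quasi-likelihood test called 0 of the 33 and 0 of 15394 genes (0.0%), with a smallest adjusted p = 0.235 in the whole table. At an unadjusted p under 0.05 it counted 7 members higher and 0 lower, where 2.86% of all genes tested were higher and 2.70% lower (441 and 415 genes). DESeq2 called 130 genes of the table after adjustment, 2 of them members, and limma-voom called 3, none of them a member. In 10 members every old sample lay above every young sample, as it did in 5.56% of all genes tested, and in 0 members did every old sample lie below, against 6.44% of all genes tested. With 3 samples per age, the smallest two-sided p of an exact permutation test is 0.1. The list was chosen with earlier results of these data known, so the shares over all genes are given as description and test nothing. The members were measured in the same libraries and are not independent observations.

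These counts depended on what the libraries were scaled to. The 10 lymphatic markers had a median log2 fold change of 0.60, close to the 0.58 of the effector genes. Scaled to the sum of those markers instead of by TMM, a choice made after seeing the data, 16 of 33 members were positive, the median was −0.08, and 2 members, Ifi27l2a and Oas1a, were higher at an unadjusted p under 0.05, as were 0.578% of all genes. Such a scaling lowers all genes together: their median became −0.65 and the share that was positive 22.4%. The distance between the members' median and that of all genes was 0.56 by TMM and 0.57 with the lymphatic scaling. Since a change of scaling shifts all genes nearly alike, this distance could hardly have moved. Of the lymphatic sum, 71.2% to 76.9% came from Ccl21a, Mmrn1, Flt4 and Reln, which were themselves higher in old cells at an unadjusted p under 0.05. The part of the lymphatic share of the RNA in the members' higher levels was not tested beyond this.

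**Figure D2:**
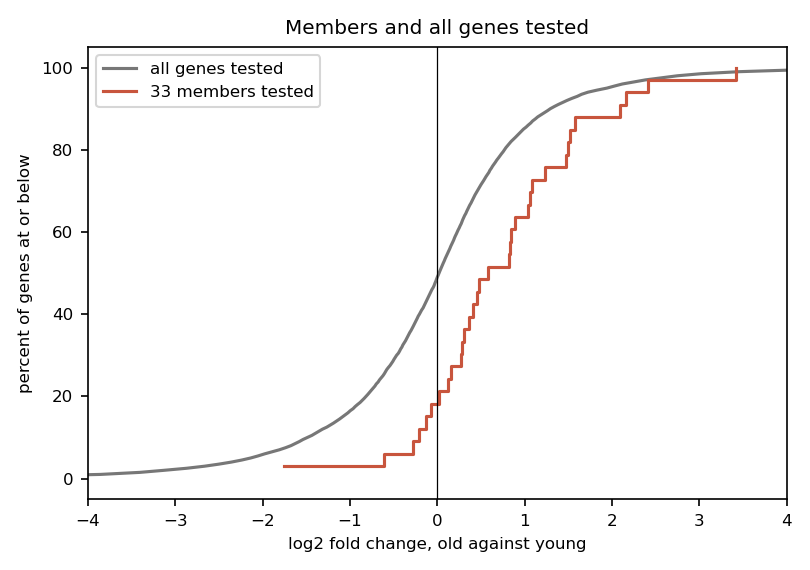
Cumulative percent of genes (vertical axis) at or below each log2 fold change of old against young (horizontal axis), for the 33 members tested in red and all genes tested in grey. The red steps lie to the right of the grey line over most of the range, with medians of 0.58 and 0.02, and the axis ends at −4 and 4.

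Among the genes of ISG15 conjugation, in which the ubiquitin-like protein ISG15 is attached to other proteins, Isg15 and Usp18 had similar differences and neither passed at an unadjusted p under 0.05. Isg15 (ENSMUSG00000035692; chromosome 4, 156199424 to 156200818, minus strand, in GRCm38) had 23.3, 7.67 and 11.8 CPM in the young samples, in the order 1 to 3, and 14.4, 32.3 and 41.01 CPM in the old ones. Young sample 1 lay above old sample 1, so the groups overlapped, and the log2 fold change was 1.04 (SE 0.76). Usp18, the protease that removes ISG15 and restrains the interferon receptor, had 21.04, 7.16 and 12.5 CPM in the young and 35.1, 30.6 and 20.9 CPM in the old samples, a log2 fold change of 1.09 (SE 0.71). The ligases Trim25, which also acts on the RNA sensor RIG-I, and Herc6 had log2 fold changes of 0.41 and −0.20. Of the words of 31 bases in Herc6, 25% are shared with the overlapping locus Gm45193, so its estimate is uncertain.

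The 3 IFIT genes, whose products bind viral RNA, lie within 1 cluster on chromosome 19 and differed from each other in which samples were high. Ifit2 (chromosome 19, 34550694 to 34576419, plus strand) had 3.97, 24.9 and 23.5 CPM in the young samples, in the order 1 to 3, and 45.9, 50.5 and 51.2 CPM in the old ones. Every old sample was above every young one, and the old samples lay close together, while young sample 1 was far below the other young samples. Its log2 fold change was 1.49 (SE 0.73; unadjusted p = 0.0736 and adjusted p = 0.891 in edgeR). Ifit1 had 56.8, 21.9 and 44.3 CPM in the young and 85.1, 109 and 33.3 CPM in the old samples, with old sample 3 within the young range. Ifit3 had 25.1, 71.00 and 45.96 CPM in the young and 58.1, 24.99 and 111 CPM in the old samples, and its groups overlapped at both ends. Of the words of 31 bases in Ifit3, 61.8% also occur in Ifit3b, a neighbouring copy with 22.6, 10.9 and 6.48 CPM in the young and 27.01, 39.5 and 21.04 CPM in the old samples, so the split of reads between them is uncertain. With the copies summed, the log2 fold change of Ifit3 was 0.63 in place of 0.45.

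Oligoadenylate synthetases bind double-stranded RNA and then make oligoadenylates, which activate the nuclease RNase L. In this family Oas1a had the largest log2 fold change of all members tested. Oas1a (ENSMUSG00000052776; chromosome 5, 120896256 to 120907521, minus strand) had 9.80, 4.88 and 2.48 CPM in the young samples, in the order 1 to 3, and 130.2, 37.9 and 15.2 CPM in the old ones. All old samples were above all young samples, but they spanned a wide range, with old sample 1 highest. The log2 fold change was 3.42 (SE 0.95; unadjusted p = 0.00618 and adjusted p = 0.752 in edgeR, and 0.0154 after adjustment in DESeq2). The gene shares 68.7% of its words of 31 bases with Oas1g, which had 1.68 to 7.38 CPM in the young samples and at least 6.64 CPM in each old sample. That lower end of the old samples is below the highest young value. With Oas1a and Oas1g summed, the log2 fold change was 2.77, and without old sample 1 that of Oas1a was 2.21. Oasl2 (chromosome 5, 114896936 to 114912234, plus strand), an oligoadenylate synthetase-like protein, had 49.96, 68.2 and 66.9 CPM in the young and 173, 78.3 and 80.4 CPM in the old samples. Its groups did not overlap, although old samples 2 and 3 were close to the highest young sample, and the log2 fold change was 0.84 (SE 0.43; unadjusted p = 0.0809 and adjusted p = 0.891 in edgeR). Without old sample 1 it was 0.36. Oas2 had 0.807, 26.5 and 6.66 CPM in the young and 1.42, 39.7 and 9.57 CPM in the old samples, Oas3 had 14.03, 5.33 and 3.38 CPM in the young and 3.14, 14.2 and 10.7 CPM in the old samples, and Oasl1, known as a translational inhibitor of Irf7, had 0.186, 4.32 and 2.48 CPM in the young and 0, 3.42 and 4.15 CPM in the old samples. For these 3 the spread within each age was larger than the difference between the ages, with log2 fold changes of 0.58, 0.30 and 0.12 (SE 1.40, 1.06 and 1.75). Each of the 3 became negative without at least 1 of the samples.

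The Mx genes encode dynamin-like proteins that trap viral nucleoproteins, and the C57BL/6 alleles are known to encode no functional protein. Mx2 (chromosome 16, 97535308 to 97560900, plus strand) was at 0 counts in all 3 young samples and in old sample 2, with 54.3 CPM in old sample 1 and 6.83 CPM in old sample 3. The filter on low counts removed it. In the 6 alternatives that kept it, edgeR gave an unadjusted p of 0.00152 to 0.0246 and a smallest adjusted p = 0.601. The smallest unadjusted p came without old sample 2, the only old sample at 0 counts. With 0 counts in every young sample, these fits gave no usable standard error. Mx2 passed those filters through old samples only, and it is among the members counted as higher there. Set against the floor of 3 counts per young library, 0.158 CPM, its old mean was at least 129-fold higher, a bound that rests on old samples 1 and 3 and covers counting error only. Without old sample 1 the bound was 21.6-fold. Mx1 (chromosome 16, 97447035 to 97462907, minus strand) had 1.80, 4.06 and 3.15 CPM in the young and 6.58, 3.78 and 28.2 CPM in the old samples, a log2 fold change of 2.10 (SE 1.15; unadjusted p = 0.102 and adjusted p = 0.891 in edgeR). Old sample 3 was far above the rest, without it the log2 fold change was 0.78, and old sample 2 fell within the young range. The old sample with the highest Mx1 was thus not the one with the highest Mx2. Of the words of 31 bases in Mx2, 12.1% also occur in Mx1, and 8.61% of those in Mx1 occur in Mx2. The split of reads between the Mx genes is uncertain to that degree.

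Enzymes that act on nucleotides and RNA included 2 of the 7 members higher at an unadjusted p under 0.05. Rsad2 (ENSMUSG00000020641; chromosome 12, 26442746 to 26456452, minus strand) encodes viperin, which makes a chain-terminating form of CTP that stops viral polymerases. It had 6.33, 24.5 and 14.8 CPM in the young samples, in the order 1 to 3, and 31.9, 144 and 66.8 CPM in the old ones, so that all old samples were above all young ones and old sample 2 was highest. The log2 fold change was 2.41 (SE 0.73; unadjusted p = 0.00976 and adjusted p = 0.778 in edgeR). Without old sample 2 the log2 fold change was 1.70 and no longer reached an unadjusted p under 0.05. Cmpk2, whose kinase supplies CTP, is its neighbour 12751 bp away in the opposite orientation and had 6.52, 18.3 and 21.6 CPM in the young and 19.4, 41.6 and 20.9 CPM in the old samples. Its log2 fold change was 0.82 (SE 0.75), its groups overlapped, and old sample 2 was again highest. Ddx60 (chromosome 8, 61928087 to 62038244, plus strand), a helicase that helps RNA sensing, had 33.3, 25.8 and 35.3 CPM in the young samples, in the order 1 to 3, and 136, 51.5 and 95.2 CPM in the old ones. The young samples lay close together and below every old sample, and the log2 fold change was 1.58 (SE 0.48; unadjusted p = 0.00938 and adjusted p = 0.778 in edgeR). Isg20, an exonuclease that degrades single-stranded RNA, had 28.7, 14.02 and 19.4 CPM in the young and 7.41, 43.3 and 0.342 CPM in the old samples, so that the old samples lay on both sides of the young range.

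The ADP-ribosylation genes lie together on chromosome 16 and had unlike values. Dtx3l, a ubiquitin ligase, and Parp9 form 1 complex and are known to be read in opposite directions from a shared promoter region. Dtx3l (chromosome 16, 35926511 to 35939151, minus strand) had 69.6, 65.00 and 50.9 CPM in the young samples, in the order 1 to 3, and 88.97, 142 and 98.2 CPM in the old ones, with no overlap between the ages. Its log2 fold change was 0.83 (SE 0.37) at an unadjusted p = 0.0499 (adjusted p = 0.888, edgeR), a call that was lost without any 1 of the young samples, without old sample 2 and without old sample 3. Parp9 had 25.9, 36.8 and 57.4 CPM in the young and 12.6, 36.8 and 29.3 CPM in the old samples, with a log2 fold change of −0.61 (SE 0.63). The exons of the 2 genes overlap over 458 bp, and since the sources used here do not state the strand of the counting, reads from that stretch cannot be told apart. Parp14, a larger ADP-ribosyltransferase, had 159, 174 and 116 CPM in the young and 296, 186 and 145 CPM in the old samples, with a log2 fold change of 0.48 (SE 0.34), and 0.14 without old sample 1.

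In the group of TRIM and nuclear body proteins Sp100 stood highest. Sp100 (ENSMUSG00000026222; chromosome 1, 85649988 to 85709998, plus strand), a component of PML nuclear bodies that restrains viral genomes, had 55.2, 43.4 and 74.6 CPM in the young samples, in the order 1 to 3, and 270.3, 107 and 103 CPM in the old ones. Every old sample was above every young sample and old sample 1 was far above the other old samples. The log2 fold change was 1.47 (SE 0.46; unadjusted p = 0.0119 and adjusted p = 0.813 in edgeR), and without old sample 1 it was 0.86 and the unadjusted call was lost. Of the words of 31 bases in Sp100, 12.5% also occur in other genes, with 9.94% in Gm7582, so its estimate is uncertain to that degree. Trim30a had 28.8, 51.5 and 54.01 CPM in the young and 96.5, 129 and 53.95 CPM in the old samples, a log2 fold change of 1.06 (SE 0.47; unadjusted p = 0.0539 and adjusted p = 0.888 in edgeR), with old sample 3 at the level of young sample 3. Trim21, an antibody receptor of the cytosol, had 7.88, 21.4 and 27.6 CPM in the young and 52.6, 11.04 and 5.13 CPM in the old samples. Its highest and its lowest library were both old. Phf11d had 122, 72.7 and 41.9 CPM in the young and 74.00, 67.6 and 98.6 CPM in the old samples, with a log2 fold change of 0.02.

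Of the other effectors, Ifi27l2a had the smallest p of all members. Ifi27l2a (ENSMUSG00000079017; chromosome 12, 103442167 to 103443680, minus strand), a small interferon-induced membrane protein, had 14.1, 16.1 and 18.1 CPM in the young samples, in the order 1 to 3, and 91.96, 57.97 and 65.1 CPM in the old ones. The young samples lay close together and the lowest old sample was more than 3 times the highest young one. The log2 fold change was 2.15 (SE 0.49; unadjusted p = 0.00179 and adjusted p = 0.687 in edgeR, and 0.000514 after adjustment in DESeq2). Its paralog Ifi27l2b shares 6% of its words of 31 bases and was at 0 in 5 libraries. Ifi27, another relative, had 45.6, 87.5 and 89.9 CPM in the young and 69.4, 88.6 and 68.1 CPM in the old samples. Ifi44 (ENSMUSG00000028037; chromosome 3, 151730922 to 151749960, minus strand) had 60.1, 53.6 and 35.6 CPM in the young samples, in the order 1 to 3, and 113, 129.6 and 109 CPM in the old ones, again with no overlap, and a log2 fold change of 1.24 (SE 0.37; unadjusted p = 0.00840 and adjusted p = 0.760 in edgeR). Samd9l, a restriction factor of poxviruses, had 118, 121 and 76.9 CPM in the young and 131, 124 and 128 CPM in the old samples. Its old samples lay above the young ones by a small margin, with a log2 fold change of 0.28 (SE 0.31).

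The remaining effectors did not reach an unadjusted p under 0.05, and their ages overlapped. Xaf1, which binds the caspase inhibitor XIAP, had 67.3, 43.9 and 47.3 CPM in the young and 19.6, 66.6 and 64.00 CPM in the old samples, and old sample 1 was the lowest of all 6. Lgals3bp, a secreted galectin-binding glycoprotein, had 72.9, 181 and 228 CPM in the young and 136, 199.9 and 104 CPM in the old samples, a log2 fold change of −0.13 (SE 0.45). Shisa5 had 119, 222 and 321 CPM in the young and 302, 185 and 361 CPM in the old samples, Ifi35 had 17.6, 13.6 and 29.2 CPM in the young and 14.4, 20.1 and 32.8 CPM in the old samples, and Rtp4, a chaperone of receptors, had 0.186, 3.05 and 1.30 CPM in the young and 0, 10.2 and 2.88 CPM in the old samples. Epsti1, with 0.0621, 5.54 and 2.70 CPM in the young and 0.374, 0.436 and 1.61 CPM in the old samples, had the lowest log2 fold change of the set, −1.76 (SE 1.55), from few counts.

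**Figure D3:**
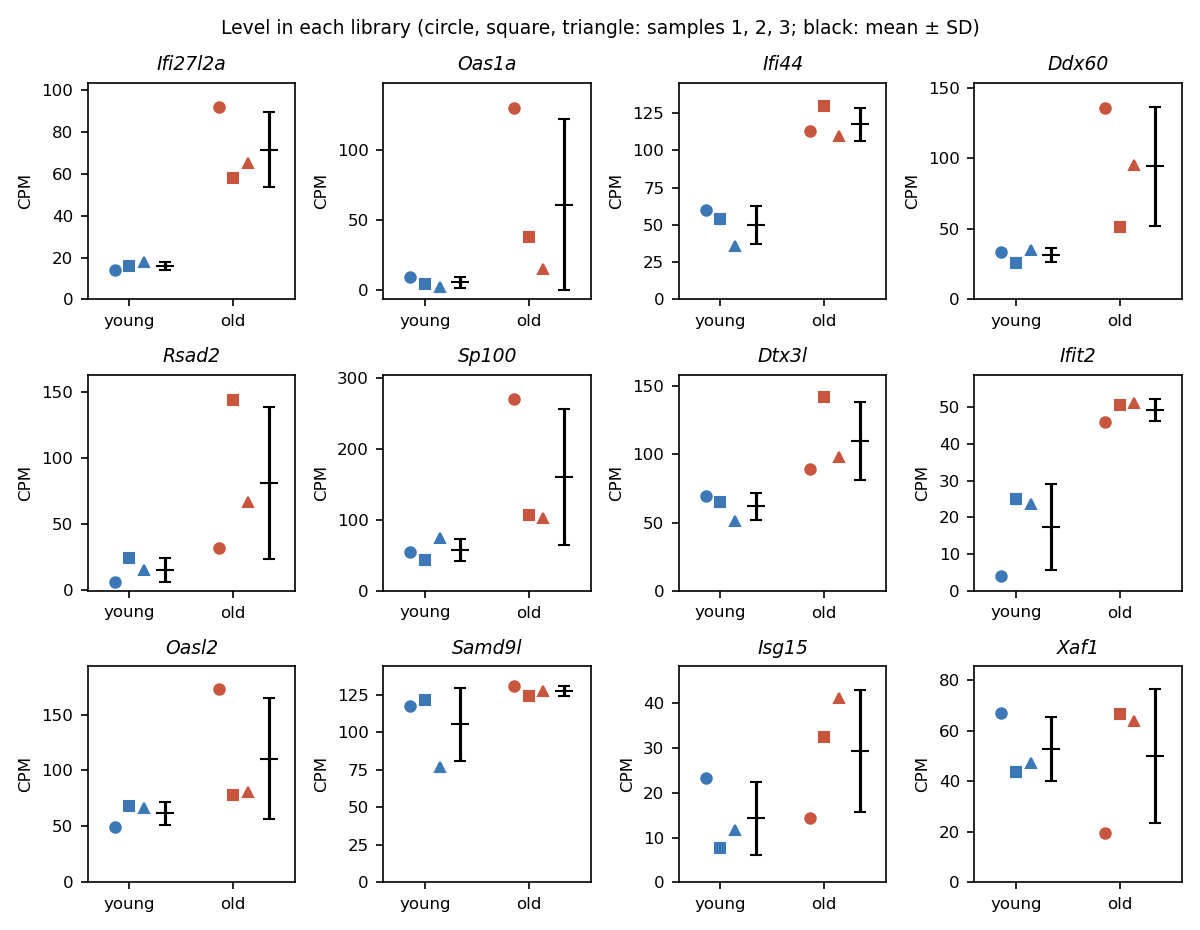
CPM (vertical axis) in each young and old sample for the 10 members whose ages do not overlap and for Isg15 and Xaf1, whose ages do, with the mean ± SD beside the points. Ifit2 and Ifi44 show old samples that lie close together and above the young ones. For Ifi27l2a the young samples lie close together and well below the old ones. Oas1a, Sp100 and Oasl2 are led by old sample 1 and Rsad2 by old sample 2.

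**Figure D4:**
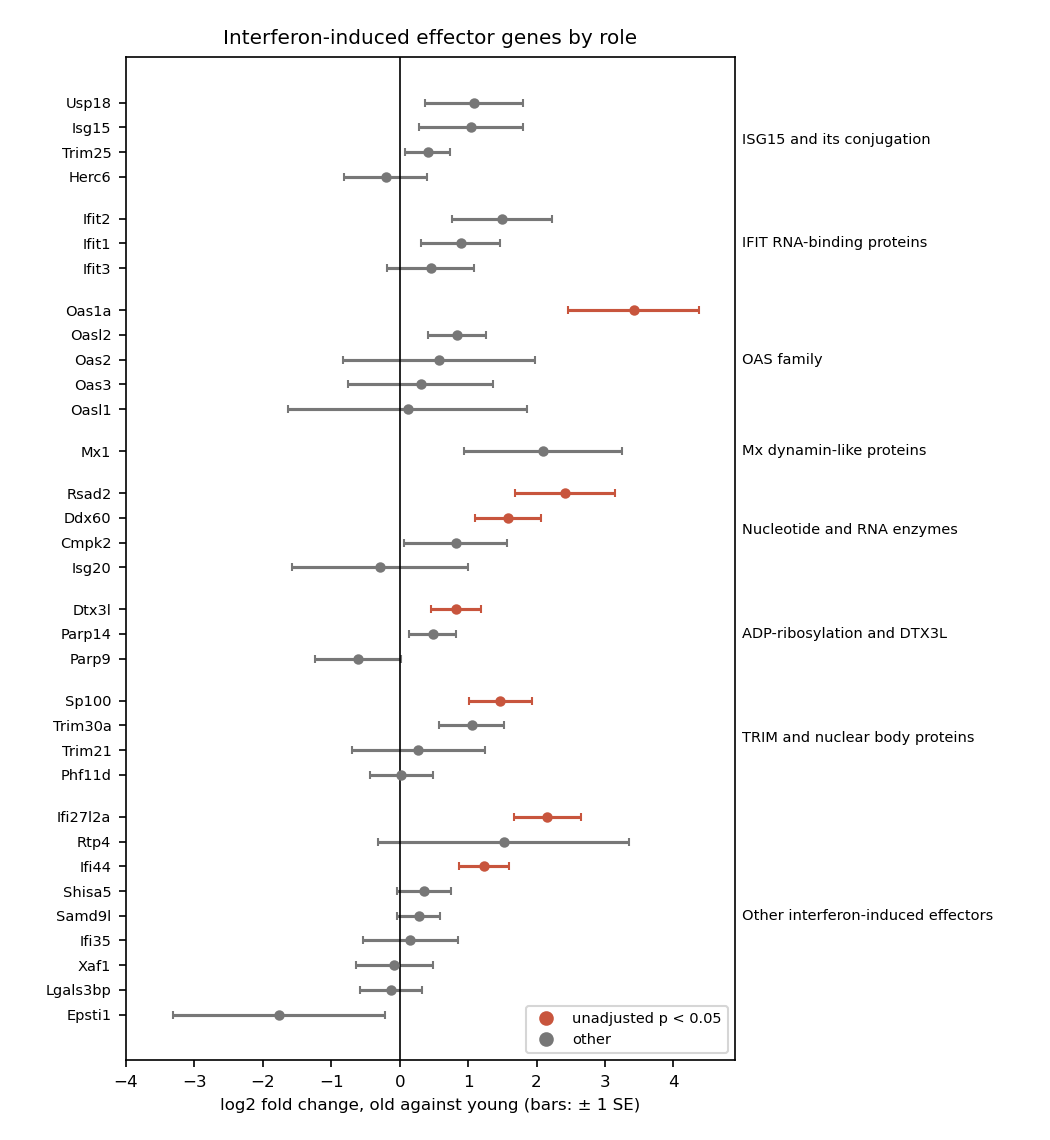
Log2 fold change of old against young (horizontal axis) with bars of ± 1 SE for the 33 members tested, grouped by role. The 7 members in red, at an unadjusted p under 0.05, are Oas1a, Rsad2, Ddx60, Dtx3l, Sp100, Ifi27l2a and Ifi44, and the 6 negative values are those of Herc6, Isg20, Parp9, Xaf1, Lgals3bp and Epsti1.

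Within an age the members did not share 1 order of samples. Of the 33, 27 had their highest level in an old sample: 10 in old sample 1, 11 in old sample 2 and 6 in old sample 3. The lowest level was in a young sample for 24, of which 12 were lowest in young sample 1. The lowest was in an old sample for 9, of which 5 were in old sample 1. The same counts over all genes are not given here, so these describe the members only. Over members, the median SD of log2 CPM within an age was 0.71 in young and 0.79 in old cells, against 0.74 and 1.01 over all genes tested. In old cells the SD ran from 0.04 for Samd9l to 3.36 for Rtp4.

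Young sample 1 and old sample 1, which had the lowest summed macrophage markers of their age, were also the lowest of their age for 8 members: Ifit2, Oas2, Oasl1, Rsad2, Cmpk2, Parp9, Rtp4 and Epsti1. Taken singly, young sample 1 was the lowest of its age for 17 of the 33 members tested and old sample 1 for 13. The share of all genes with this order is not given here. Among the 8 members, chosen after their values were seen, Oasl1, Rtp4 and Epsti1 were under 1 CPM in both libraries and above 1 CPM in young samples 2 and 3. Epsti1 was also under 1 CPM in old sample 2, at 0.436 CPM. Oas2 had 0.807 and 1.42 CPM in the 2 libraries and 6.66 to 39.7 CPM in the other 4. Csf1r, the growth factor receptor of macrophages, had 77.8, 1006 and 1798 CPM in the young and 46.6, 696 and 141 CPM in the old samples. Of the 7 members higher at an unadjusted p under 0.05, Oas1a, Ddx60, Sp100 and Ifi27l2a had their highest level in old sample 1, the old library with the lowest sum of macrophage markers. Rsad2, Dtx3l and Ifi44 had theirs in old sample 2, the old library with the highest such sum. The part of macrophage RNA in the values of the members was not tested.

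**Figure D5:**
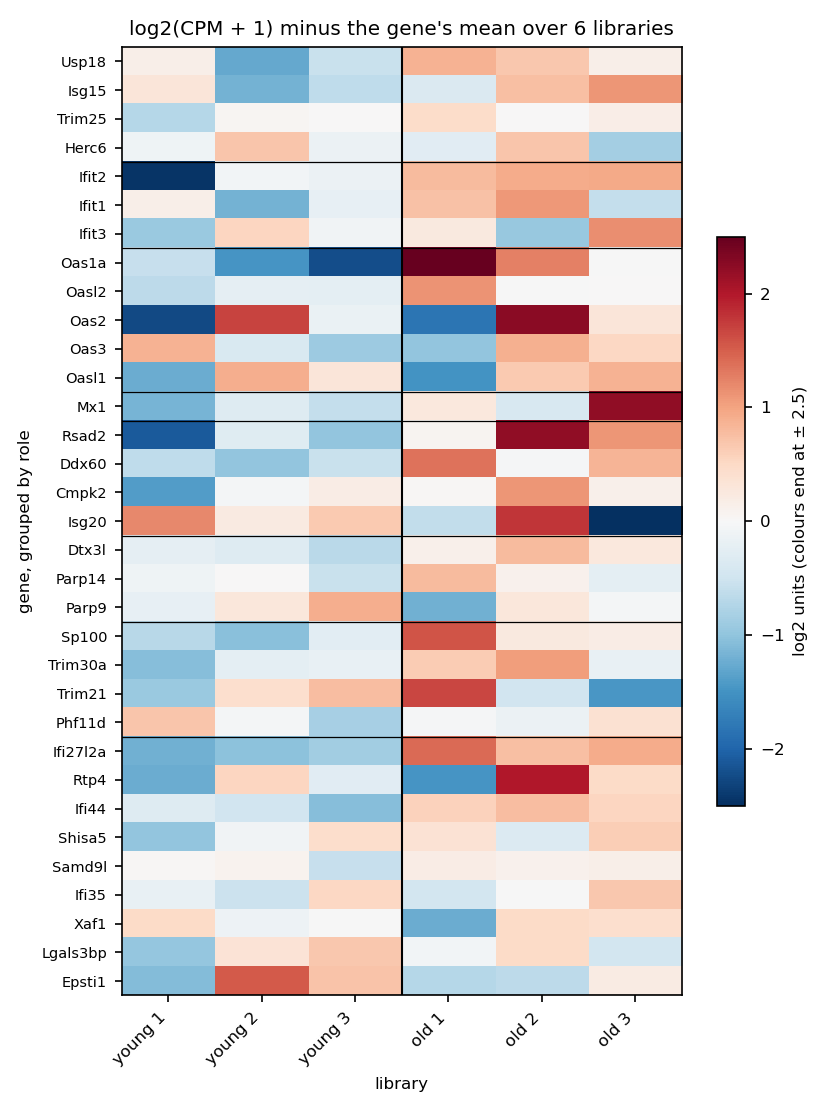
Each member (rows, grouped by role) in each library (columns), as log2(CPM + 1) minus the mean of that gene over the 6 libraries, with red above and blue below the mean. Old columns are red for most rows, while rows such as Oas2, Oasl1 and Rtp4 are blue in sample 1 of both ages.

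Compared per kilobase of merged exon length, the level of the members covered a wide range. In young cells Shisa5 had the highest level at 66.9 CPM per kb, followed by Lgals3bp at 56.4, Ifi27l2a at 34.8 and Ifit3 at 27.1. In old cells Ifi27l2a was highest at 155 CPM per kb, ahead of Shisa5 at 85.8 and Lgals3bp at 51.6. The order depends in part on the length used. Merged exons and the longest coding transcript are both 463 bp for Ifi27l2a, but 3297 and 1910 bp for Shisa5. The lowest level in young cells above 0 was that of Rtp4, at 0.710 CPM per kb, and the lowest in old cells that of Epsti1, at 0.348. A mean over the 6 samples of at least 50 CPM was reached by 15 of the 34 genes.

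Upstream of the effectors, the ligands with values were at or near 0, and so was the receptor chain Ifnlr1, while the other receptor chains and kinases passed the filter. Of 21 interferon genes listed, 5 were in the table and the other 16 were not analysed here. The sum of the 5 was at most 1.78 CPM in any library, and none passed the filter. Ifnb1, which encodes interferon beta, had counts in young sample 3 only, at 0.675 CPM. Of 9 receptor subunits and JAK kinases, 8 were tested, and 0 were higher and 0 lower at an unadjusted p under 0.05. Of all genes tested, 2.86% were higher and 2.70% lower at that threshold. Jak1, a kinase of every interferon receptor, had 291, 324 and 277 CPM in the young and 464, 299 and 332 CPM in the old samples, and Ifnar2, a chain of the type I receptor, had 94.5, 147 and 151 CPM in the young and 68.2, 230.2 and 205 CPM in the old samples. Among transcription factors, Irf9, Irf7 and Irf1 were higher at an unadjusted p under 0.05. Irf9, a DNA-binding factor of the interferon response, had 50.6, 92.8 and 33.4 CPM in the young and 180.3, 131 and 158 CPM in the old samples, and Irf7, an amplifier of interferon genes, had 2.48, 0.965 and 14.4 CPM in the young and 32.5, 63.4 and 48.3 CPM in the old samples, both without overlap between the ages. Irf1 had 25.2, 28.1 and 33.4 CPM in the young and 249.5, 18.5 and 67.4 CPM in the old samples and rested on old samples 1 and 3. Irf5 went the other way, with 17.8, 19.04 and 25.6 CPM in the young and 0.225, 10.7 and 2.05 CPM in the old samples, every old sample below every young one, and a log2 fold change of −2.27 (SE 1.26; unadjusted p = 0.105 and adjusted p = 0.891 in edgeR). Of 8 negative regulators of the signal 0 passed in either direction, with Pias1, a SUMO ligase, at 84.96, 78.5 and 59.7 CPM in the young and 46.4, 41.6 and 27.4 CPM in the old samples and Socs3 at 13.96, 33.1 and 52.7 CPM in the young and 21.1, 85.3 and 96.96 CPM in the old samples.

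Of 14 nucleic acid sensors and adaptors tested, 2 were higher and 1 was lower at an unadjusted p under 0.05. At that threshold 2.86% of all genes tested were higher and 2.70% lower. Cgas, the sensor of cytosolic DNA, was the lower one, with 16.5, 12.5 and 15.8 CPM in the young and 1.12, 1.31 and 1.56 CPM in the old samples (log2 fold change −3.48, SE 1.00), and Zbp1, a sensor of Z-form nucleic acid, had 16.8, 45.7 and 17.3 CPM in the young and 84.9, 96.2 and 79.4 CPM in the old samples. Ifih1, which senses long double-stranded RNA, was the other higher one. Of 11 interferon-inducible GTPases tested, 5 were higher and 0 lower at the same threshold. In 6 of them every old sample lay above every young sample, as it did in 5.56% of all genes tested. Irgm2 had 139.8, 136 and 111 CPM in the young and 308, 254 and 264 CPM in the old samples, and Iigp1, which attacks the vacuoles of intracellular parasites, had 72.9, 84.2 and 91.9 CPM in the young and 202, 170.0 and 190.4 CPM in the old samples. The median log2 fold change was 1.10 over the GTPases, 0.48 over the sensors and −0.01 over the receptors and kinases, beside 0.58 over the effectors and 0.02 over all genes tested. Among the marker lists the same median was 1.04 for pericytes and smooth muscle, 0.68 for blood endothelium (9 of 9 positive) and 0.60 for lymphatic endothelium. It was −1.06 for fibroblasts (9 of 10 negative) and −1.56 for macrophages and microglia (16 of 17 negative). In both of these lists the 1 positive marker was higher at an unadjusted p under 0.05.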

How the data were processed

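The table holds estimated counts per gene for 6 samples, as deposited by the authors. FastQC, Salmon and the mouse build mm10 are named, with no versions or roles, per the submitters' processing notes. The sources used here do not state the authors' annotation, rounding or strand setting. Of 22964 genes, 22738 had a symbol in GENCODE M21 (GRCm38, the assembly that mm10 denotes), which also gave 1-based positions and exon lengths. The estimated counts were already whole numbers.

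The whole table was fitted with edgeR 4.0.16 (R 4.3.3): filterByExpr with its minimum of 10 counts and total of 15, which removed 7570 genes, TMM scaling, a robust quasi-likelihood fit on age with no covariate, and Benjamini-Hochberg adjustment over 15394 genes at a threshold of 0.05. The standard error is the unshrunken log2 fold change divided by the square root of the test's F. Log2 CPM used a prior count of 2, and the heat map a pseudocount of 1. DESeq2 1.42.0 and limma-voom (limma 3.58.1) were alternatives, beside other scalings and filters, a replicate block, summed copies and leaving out each sample. No 2 samples of an age agreed within sampling noise, with a chi-square per degree of freedom of at least 103.1.

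The members and gene lists were chosen with earlier results of these data known. All members are accounted for. Values in every sample were to be given for members with a mean of at least 5 CPM and an unadjusted p under 0.05, for those whose ages do not overlap, and for Isg15, Ifit1, Mx1 and Xaf1. From each pathway list the 2 genes with the smallest p were named, and other genes after their values were seen. The counts of one pathway list are not reported here. Shared sequence is the percent of words of 31 bases in a gene's longest coding transcript that occur in transcripts of another gene. Over all other genes it was also 20.1% for Phf11d, 14.5% for Rtp4, 12.8% for Isg15, 12.1% for Mx2, 11.8% for Trim30a and 10.5% for Ifit1. The assignment of reads to these genes is uncertain to that degree.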

Additional observations from a re-analysis of the deposited data

How the results depend on the processing

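Scaling by library size only moved the median log2 fold change of all genes from 0.02 to −0.12 and the share that was positive from 51.0% to 44.2%. The distance of the members' median from that of all genes was 0.57, which a change of scaling alone can hardly move. Over all alternatives it was 0.53 to 0.80, the ends being limma-voom and the fit without old sample 3. Over the alternatives tried, the number of members with a positive log2 fold change ran from 24 to 28, the number higher at an unadjusted p under 0.05 from 6 to 10 and the number without overlap from 9 to 14, except with scaling to the lymphatic markers, which gave 16, 2 and 3. Outside that scaling, the share of all genes moved too, from 1.85% (library size only) to 4.59% (DESeq2) higher at an unadjusted p under 0.05 and from 4.12% to 11.0% without overlap, with 10.5% where 14 members were reached. In the 6 alternatives that tested Mx2, at 0 counts in every young sample, it was among the members counted as higher. Those counts thus include a gene that passed the filter through old samples only. Without old sample 2, only 5 of the 7 calls reported above were kept. After adjustment DESeq2 called 130 genes of the table and 2 members (Ifi27l2a and Oas1a), and limma-voom called 3 genes. Leaving out 1 sample gave 0 to 1 gene calls, 0 member calls and a median log2 fold change of the members of 0.57 to 0.81. That median was 0.45 with library size only, 0.82 with a mean of at least 50 counts, 0.42 by limma-voom, 0.45 with the replicate block and −0.078 with the lymphatic scaling. The deviations of same-numbered samples from the mean of their age had correlations of 0.08, 0.05 and −0.01 over genes. Those of the other pairs ran from −0.09 to 0.06. With deviations from means of only 3 samples, this cannot settle whether the numbers pair the samples. With the replicate block 6 members were higher at an unadjusted p under 0.05 and Dtx3l was not. Not every sample correlated best with its own number. Ifi27l2a and Oas1a reached an unadjusted p under 0.05 under every alternative, and Ddx60 and Ifi44 under all but the lymphatic scaling.

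Directions turned for some members, among them Rtp4 with a log2 fold change of 1.52 as reported, and the cause was not tested. Leaving out 1 sample at a time turned the log2 fold change of 12 genes, with ranges of −0.76 to 0.12 for Herc6, −0.19 to 0.86 for Ifit3, −1.04 to 2.17 for Oas2, −0.13 to 1.10 for Oas3, −0.45 to 0.92 for Oasl1, −2.42 to 0.29 for Isg20, −1.23 to 0.74 for Trim21, −0.29 to 0.48 for Phf11d, −0.22 to 0.52 for Ifi35, −0.069 to 2.52 for Rtp4, −0.34 to 0.31 for Xaf1 and −0.48 to 0.20 for Lgals3bp. With the lymphatic scaling it was −0.31 for Trim25, −0.30 for Ifit3, −0.078 for Oas2, −0.23 for Oas3, −0.58 for Oasl1, −0.21 for Parp14, −0.54 for Trim21, −0.61 for Phf11d, −0.52 for Ifi35, −0.39 for Samd9l and −0.38 for Shisa5. By limma-voom it was −0.64 for Oasl1 and −0.43 for Trim21. With the replicate block it was −0.61 for Oasl1 and −0.40 for Trim21. With library size only it was −0.10 for Phf11d. With near-identical copies summed it was −0.012 for Phf11d.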
